A study of Rattus norvegicus with 6 samples.

Results

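The genes described here are 6 markers of Kupffer cells and other leukocytes in rat liver (Rattus norvegicus): Cd68, Aif1, Ptprc, Itgam, Cd74 and Cd14. They were chosen by Ensembl ID from a list that pairs each ID with its symbol (ENSRNOG00000037563 for Cd68, ENSRNOG00000000853 for Aif1, ENSRNOG00000000655 for Ptprc, ENSRNOG00000019728 for Itgam, ENSRNOG00000018735 for Cd74 and ENSRNOG00000017819 for Cd14). All 6 IDs were present among the 26689 gene IDs of the count files. The files hold IDs alone, and 0 of 26689 IDs matched the RefSeq table used here, so the pairing was not checked and every role named below holds only as far as the pairing does. For the same reason hepatocyte-defining genes and markers of other liver cells were not read by name.

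RNA was sequenced from animals with ischemia reperfusion of the liver (IR, a temporary clamp of the portal vein followed by renewed flow) that also received etanercept and nitroglycerin (treated IR), from animals with IR alone, and from healthy untreated animals (control). The treated animals had 9 mg/kg etanercept, a soluble receptor that captures tumor necrosis factor, 16 to 18 h ahead of IR. Nitroglycerin, a donor of nitric oxide, ran in at 6 µg/kg/min from before IR until its end. Each condition was measured 1 day after IR in hepatocytes freshly isolated by collagenase perfusion and in whole liver, the hepatocytes coming from additional animals. RNA of 3 animals was pooled into each library, so there were 6 groups of 1 library, and no sham operation is named in the labels. A ratio between 2 libraries therefore has no replicate check.

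Kupffer cells are the resident macrophages of the liver sinusoids. They take up particles and bacterial products that arrive with portal blood, present antigen, and are an early source of tumor necrosis factor when a liver is reperfused, after which neutrophils and monocytes enter from the blood. Collagenase perfusion followed by isolation is meant to enrich hepatocytes and to leave such cells behind. In bulk RNA, fewer cells of a type and less RNA per cell cannot be told apart.

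Reads in genes ran from 1945331 to 7160610 per library. Levels are given as CPM, read counts relative to the library's size on a fixed scale, adjusted by TMM, a normalization that assumes most genes are unchanged, and a count of 0 is read as up to 3 reads, which is 0.400 to 1.39 CPM depending on the library. Levels are not corrected for gene length and are not compared between genes. Intervals cover counting error only.

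Of the 6 genes, 5 were lower in isolated hepatocytes than in whole liver, whereas Cd14 did not differ detectably. The lower ones were Cd68, Aif1, Ptprc, Itgam and Cd74, with fitted log2 ratios from -4.58 to -3.10. Taken as the ratio of mean CPM, a separate estimate, their hepatocyte levels were 2.57% (Itgam) to 11.3% (Cd68) of the liver levels. That ratio enters a count of 0 as 0 CPM and not as up to 3 reads. Aif1, Ptprc and Itgam had such counts in hepatocytes, so their shares may be higher, and neither end of the range is a bound. The value of 2.57% rests on 2 Itgam reads, both in the IR library. Across all genes 4.9% were called lower in this comparison (487 of 9932, by edgeR's quasi-likelihood test of 3 libraries against 3 in a model that also holds condition, at a Benjamini-Hochberg adjusted p of at most 0.05). The median log2 ratio was -3.28 over the 6 genes and 0.03 over all genes tested. Cd68, Aif1, Ptprc and Itgam entered this test through their liver libraries, so their adjusted p-values below describe genes let in where they are high.

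Cd68 encodes a lysosomal glycoprotein of macrophages and monocytes, an antigen widely used to stain rat macrophages. It had 1.39 CPM in treated IR, 4.25 CPM in IR and 1.86 CPM in control hepatocytes (3, 22 and 6 reads), against 21.8 CPM in treated IR, 25.8 CPM in IR and 18.8 CPM in control liver (163, 174 and 43 reads). Every hepatocyte library lay below every liver library, and the highest hepatocyte value was the one after IR alone. The log2 ratio was -3.10 (SE 0.37, edgeR adjusted p = 0.000139). SE here and below is back-calculated from edgeR's quasi-likelihood test. It is the absolute log2 ratio divided by the square root of the F statistic.

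Aif1 encodes Iba1, a calcium-binding protein of macrophages that bundles actin. It had 0.464 CPM in treated IR, 4.06 CPM in IR and 0 CPM in control hepatocytes (1, 21 and 0 reads), against 14.8 CPM in treated IR, 12.3 CPM in IR and 16.6 CPM in control liver (111, 83 and 38 reads). Of the 22 hepatocyte reads all but 1 came from the IR library, and the groups did not overlap. On the log2 scale it was lower by a ratio of -3.20 (SE 0.66, adjusted p = 0.00816 by edgeR).

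Ptprc encodes CD45, the receptor tyrosine phosphatase carried by all nucleated blood cells and required for antigen receptor signalling in lymphocytes. Hepatocytes had 0 CPM in treated IR, 1.16 CPM in IR and 0 CPM in control (0, 6 and 0 reads), against 8.01 CPM in treated IR, 4.30 CPM in IR and 4.80 CPM in control liver (60, 29 and 11 reads). Only the IR library of hepatocytes held a read, and it was still below the lowest liver library. The log2 ratio was -3.35 (SE 0.79, edgeR adjusted p = 0.0190).

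Itgam encodes CD11b, the alpha chain of the Mac-1 integrin, with which neutrophils and monocytes adhere to endothelium and bind complement-coated particles. It had 0 CPM in treated IR, 0.387 CPM in IR and 0 CPM in control hepatocytes (0, 2 and 0 reads), against 7.07 CPM in treated IR, 5.33 CPM in IR and 2.62 CPM in control liver (53, 36 and 6 reads). The hepatocyte libraries thus held 2 reads in all, both in IR, against 95 in liver. With the conditions of each preparation pooled, the liver level was 30.3-fold higher, with a Clopper-Pearson interval of 8.16 to 254. That interval leaves out the spread between libraries. Its fitted log2 ratio was -4.58 (SE 0.83, edgeR adjusted p = 0.00336).

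Cd74 encodes the invariant chain, the chaperone that guides MHC class II molecules to the compartment where they are loaded with peptide. It had 15.8 CPM in treated IR, 33.8 CPM in IR and 9.00 CPM in control hepatocytes (34, 175 and 29 reads), against 210 CPM in treated IR, 235 CPM in IR and 166 CPM in control liver (1576, 1584 and 380 reads). The groups were far apart, and the IR library was again the highest in hepatocytes. The log2 ratio was -3.54 (SE 0.37, edgeR adjusted p = 4.96e-05).

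Cd14 encodes the co-receptor that hands bacterial lipopolysaccharide to Toll-like receptor 4 on monocytes and macrophages. It had 86.8 CPM in treated IR, 42.5 CPM in IR and 85.7 CPM in control hepatocytes (187, 220 and 276 reads), against 71.8 CPM in treated IR, 73.2 CPM in IR and 75.5 CPM in control liver (538, 494 and 173 reads). The treated IR and control hepatocytes were above all 3 livers and the IR hepatocytes below them, so the groups overlapped. The log2 ratio was -0.11 (SE 0.30, edgeR adjusted p = 0.989), and it changed sign to 0.18 without the hepatocyte IR library and to 0.23 without the liver IR library. Named as a leukocyte marker, Cd14 thus went against that label here, with a level in isolated hepatocytes not told apart from that of liver.

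**Figure D1:**
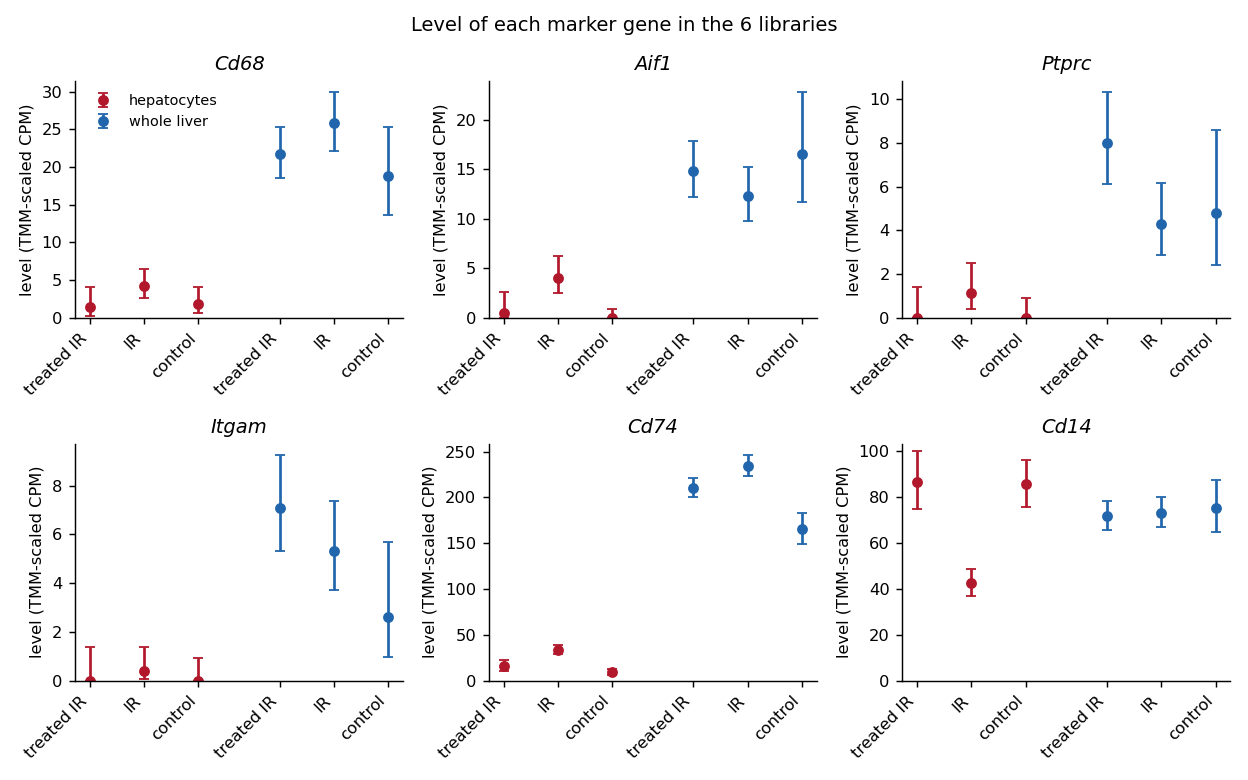
TMM-scaled CPM (y axis, starting at 0, a separate scale for each gene) of the 6 marker genes in the hepatocyte libraries (red) and the whole liver libraries (blue) of treated IR, IR and control. Points are single libraries and bars are exact 95% Poisson intervals for counting error, with the upper end at 3 reads where the count was 0; every gene but Cd14 is far lower in hepatocytes, and Cd68, Aif1 and Cd74 have their highest hepatocyte value after IR.

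All 3 hepatocyte libraries were below all 3 liver libraries for 5 of the 6 genes, a pattern that 11.5% of tested genes showed. An exact two-sided permutation test of each gene's CPM, 3 libraries against 3, gave p = 0.1 for these 5 genes and p = 1 for Cd14. The value of 0.1 is the smallest it can give. Groups without overlap always reach it, so for these 5 genes the test adds nothing to the pattern above. Of the 6 genes, Cd68, Aif1, Ptprc and Itgam would not have passed the expression filter, which needs 2 libraries, on their hepatocyte libraries. Cd68 and Aif1 each had 1 hepatocyte library at its cutoff, and Ptprc and Itgam had 0. With no filter all 6 were tested among 16548 genes, and the 5 lower genes were again called, among 712 genes called in either direction. Ptprc was not called without the liver treated IR library (edgeR adjusted p = 0.0804, range over its 12 alternatives 2.72e-06 to 0.0804), and Aif1 was not called by DESeq2 (adjusted p = 0.0650, range over its 13 alternatives 4.47e-13 to 0.0650).

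The sizes of the 3 sparsest ratios rested on single libraries. Leaving out 1 library at a time, the log2 ratio ran from -6.22 to -2.47 for Aif1, from -7.76 to -2.71 for Ptprc and from -7.31 to -4.07 for Itgam. The lowest value of each came without the hepatocyte IR library, where the remaining hepatocytes held 1 Aif1 read and no read of Ptprc or Itgam, so that fitted value depends on the prior count and is no bound. The highest came without the hepatocyte control library for Aif1 and without the hepatocyte treated IR library for Ptprc and Itgam.

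**Figure D2:**
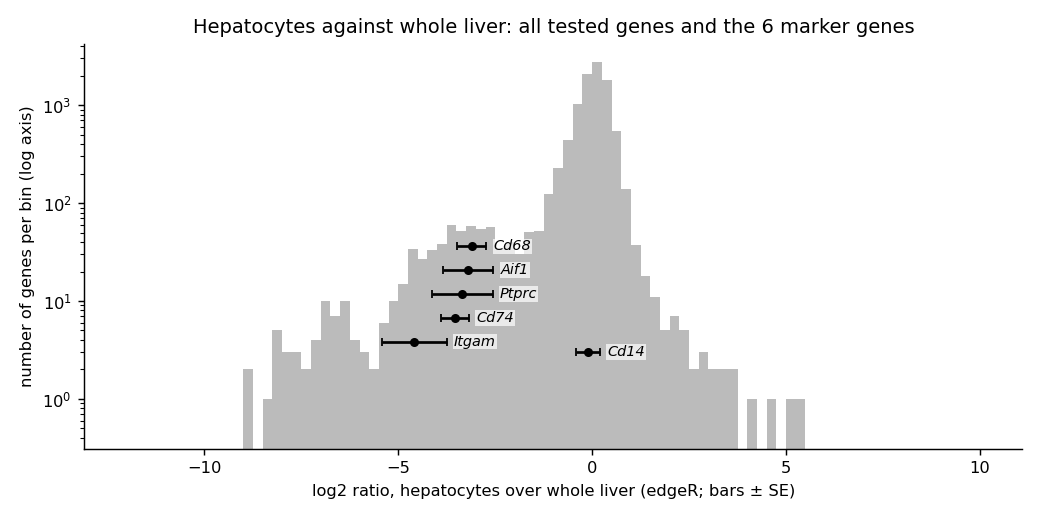
Histogram of the edgeR log2 ratio of hepatocytes to whole liver (x axis) for 9932 genes, with the number of genes per bin on a log axis. Black points are the 6 marker genes with bars of 1 SE, placed at arbitrary heights: 5 of them lie between -4.58 and -3.10, and Cd14 lies at -0.11 near the bulk of genes.

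The share of the liver level that was left in hepatocytes was then read in each condition. For Cd74, the gene with the most reads, it was 7.50% in treated IR (95% Clopper-Pearson interval 5.18 to 10.5), 14.4% in IR (12.3 to 16.9) and 5.43% in control (3.59 to 7.92). The interval in IR lay above the other two, and with library totals alone the ratio in treated IR was 0.0480. Cd68 had 6.40% in treated IR (1.31 to 19.0), 16.5% in IR (10.1 to 25.8) and 9.92% in control (3.45 to 23.4), with intervals that overlapped.

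Aif1 was left at 3.13% in treated IR (0.0786 to 17.8) and at 33.0% in IR (19.4 to 53.8), and control hepatocytes had 0 reads. Against a floor of 3 hepatocyte reads, with the liver count taken as it stands, the control liver level was at least 17.8-fold higher, and the lower Clopper-Pearson limit, which includes the liver's counting error, was 13.8-fold. Ptprc was left at 27.0% in IR (9.16 to 66.2), while against the same floor the liver level was at least 5.75-fold higher in treated IR (lower Clopper-Pearson limit 4.53) and at least 5.16-fold higher in control (lower limit 3.53, with 11 liver reads). Itgam was left at 7.25% in IR (0.846 to 28.2), with a liver level at least 5.08-fold higher than the floor in treated IR (lower Clopper-Pearson limit 3.99) and at least 2.81-fold higher in control (lower limit 1.66, with 6 liver reads). By the rule of size used for 2 single libraries, a ratio of at least 2-fold with an interval that excludes equality, these 5 genes were lower in hepatocytes in each condition, where 12.8% (treated IR), 11.5% (IR) and 7.22% (control) of all genes were.

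Cd14 in hepatocytes stood at 121% of liver in treated IR (102 to 143), 58.1% in IR (49.3 to 68.3) and 113% in control (93.5 to 138). None of these passed the rule of size, and the treated IR and IR intervals lay on opposite sides of the liver level. With library totals in place of TMM the ratio to liver was 0.773 in place of 1.21 in treated IR and 0.899 in place of 1.13 in control, so the direction of both depended on the scaling. Set against the other genes within each library, Cd14 had 4.92, 0.973 and 7.89 reads per summed read of the other 5 in treated IR, IR and control hepatocytes, against 0.274, 0.259 and 0.362 in treated IR, IR and control liver. This measure needs no scaling, and most of the summed reads in each library were of Cd74. The other 5 genes were set apart from Cd14 after their lower level in hepatocytes had been seen, so these values restate that difference and carry no test.

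**Figure D3:**
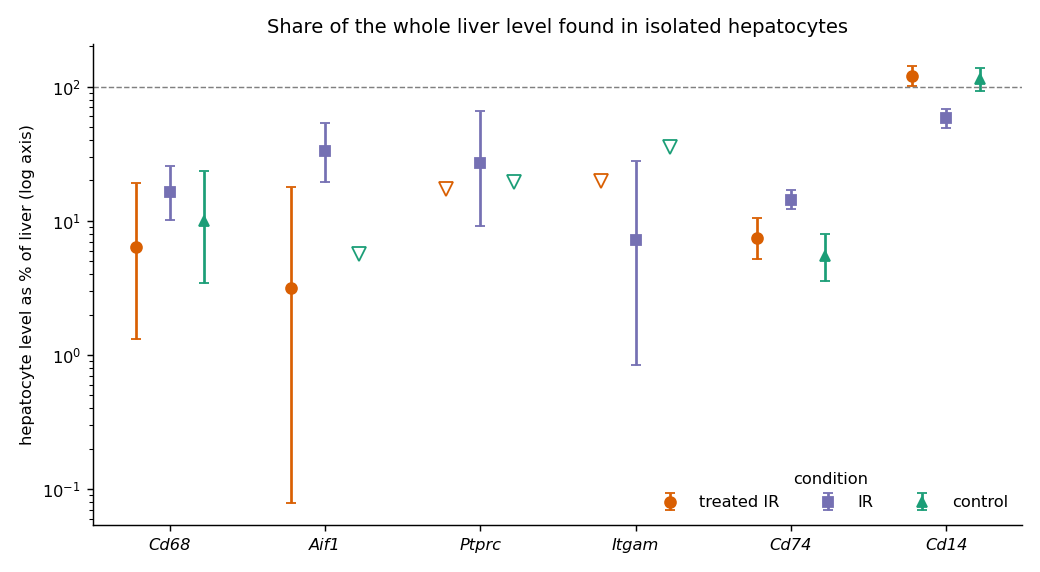
Hepatocyte level as a percent of the whole liver level (y axis, log scale) for each marker gene in treated IR, IR and control. Filled symbols carry 95% Clopper-Pearson intervals for counting error. Open triangles, where hepatocytes had 0 reads, mark 3 hepatocyte reads set against the liver level as it stands. They leave out the liver's counting error, and the upper Clopper-Pearson limits are higher (for Itgam in control 60.4%, with the triangle at 35.6%). The dashed line is 100%. Cd14 alone lies near the line. The IR value is the highest for Cd74, Cd68 and Aif1, but the Cd68 intervals overlap and Aif1 had 1 read in treated IR hepatocytes.

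The promoters of the genes that moved together are shown beside that of Cd14, which did not. RefSeq holds a promoter for 5 of the 6 symbols in build GRCr8, which is not known to be the build of the count files, and the 250 bases upstream of the gene start are printed for Cd74, Cd68 and Cd14 (5′ to 3′ on the gene's strand). Capitals mark GAGGAA on either strand (TTCCTC on the other), a core recognised by PU.1, the ETS factor required for the macrophage lineage.
Cd74, chr18:56526956-56527205, plus strand: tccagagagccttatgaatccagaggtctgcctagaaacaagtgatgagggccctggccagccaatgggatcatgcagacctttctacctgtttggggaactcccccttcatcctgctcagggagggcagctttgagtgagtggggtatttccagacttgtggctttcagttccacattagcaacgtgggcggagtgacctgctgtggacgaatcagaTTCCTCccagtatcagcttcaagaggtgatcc
Cd68, chr10:54882442-54882691, minus strand: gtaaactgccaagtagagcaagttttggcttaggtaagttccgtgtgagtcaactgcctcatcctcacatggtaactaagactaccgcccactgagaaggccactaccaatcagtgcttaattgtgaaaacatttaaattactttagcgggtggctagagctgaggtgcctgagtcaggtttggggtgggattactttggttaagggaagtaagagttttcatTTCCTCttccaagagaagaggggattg
Cd14, chr18:28611159-28611408, minus strand: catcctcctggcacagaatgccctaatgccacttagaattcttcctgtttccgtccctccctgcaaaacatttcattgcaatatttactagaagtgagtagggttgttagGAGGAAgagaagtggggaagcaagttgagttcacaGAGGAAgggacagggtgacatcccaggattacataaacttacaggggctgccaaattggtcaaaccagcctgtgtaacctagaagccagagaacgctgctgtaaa
The motif was chosen after the sequences had been seen. GAGGAA stood in 5 of the 5 windows, Ptprc and Itgam included, and in 23.3% of 33469 rat promoter windows of the same length. The window of Cd14 held 2 copies and those of Cd74 and Cd68 1 each, so its presence did not separate the gene kept in hepatocytes from those that were lower. CCAAT on either strand stood in 3 of the 5 windows and in 34.0% of all. Such a match is a description of letters and not of a bound site.

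Within hepatocytes the library after IR alone had the highest measured level of the 3 for Cd68, Aif1 and Cd74 and the lowest for Cd14. It also held all hepatocyte reads of Ptprc and Itgam, but with 6 and 2 reads these lay within what 3 reads would give in the treated IR library, so their order is not known. Of all tested genes, 38.9% had their highest measured level in this library and 35.6% their lowest. The summed level of the 5 leukocyte genes was 17.6 CPM in treated IR, 43.7 CPM in IR and 10.9 CPM in control hepatocytes (38, 226 and 35 reads), against 262, 282 and 209 CPM in treated IR, IR and control liver. Cd74 alone held 15.8, 33.8 and 9.00 CPM of these sums in treated IR, IR and control hepatocytes, and most of each liver sum. The sums therefore mainly restate Cd74. The part of the 5 genes in other differences of the IR hepatocyte library was not tested.

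For IR against control in hepatocytes, 3 of the 6 genes passed the rule of size, where 16.5% of all genes did (9.53% higher and 6.93% lower). Cd74 was 3.76-fold higher in IR (interval 2.53 to 5.78). Aif1 had 21 reads in IR and 0 in control, at least 4.36-fold higher against a floor of 3 control reads, with a lower Clopper-Pearson limit of 3.24. Cd14 was at 0.497 of the control level (0.414 to 0.595), opposite in direction to the others. Cd68 had a ratio of 2.28 (0.898 to 6.89), Ptprc had 6 reads in IR against 0 in control and Itgam 2 against 0, too few to tell apart.

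For treated IR against IR alone in hepatocytes, the same 3 genes passed, each in the opposite direction, where 23.3% of all genes passed (11.2% higher and 12.1% lower). These 2 comparisons share the IR library, so the reversal is not independent of the first result. Cd74 was at 0.466 of the IR level (0.313 to 0.677), Aif1 at 0.114 (0.00276 to 0.711, 1 read against 21), and Cd14 was 2.04-fold higher (1.67 to 2.49). Cd68 had a ratio of 0.327 (0.0627 to 1.09). Both Cd14 ratios sit at the 2-fold limit: with library totals alone they were 0.515 for IR against control and 1.67 for treated IR against IR, with no filter 0.501 and 1.99, and with a minimum count of 50 0.512 and 1.97, none of which passes the rule. With library totals alone Cd68 passed for treated IR against IR, at 0.268 (0.0513 to 0.891).

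For treated IR against control in hepatocytes 0 of the 6 genes passed the rule of size, where 8.32% of all genes did, a share at which few or none of 6 would pass. Cd74 had a ratio of 1.75 (1.04 to 2.98), past counting error but under 2-fold, Cd14 of 1.01 (0.837 to 1.22, and 0.860 with library totals alone) and Cd68 of 0.748 (0.121 to 3.50, 3 reads against 6). Aif1 had 1 read against 0, and Ptprc and Itgam had none in either library.

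In whole liver 1 of the 6 genes passed the rule of size in 1 of the 3 comparisons of conditions. Cd14 was nearly level with TMM scaling, with ratios of 0.981 for treated IR to IR (0.867 to 1.11), 0.951 for treated IR to control (0.800 to 1.14) and 0.970 for IR to control (0.814 to 1.16). With TMM its highest liver library was 1.05-fold above its lowest, the narrowest range of the 6. With library totals alone the Cd14 ratios for treated IR to IR and for IR to control became 1.29 and 0.776. Its range was then wider than that of Cd68, whose largest liver ratio was 1.22 (treated IR to control).

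Cd74 was 1.27-fold higher in treated IR than in control liver (1.13 to 1.42) and 1.42-fold higher in IR than in control liver (1.26 to 1.59, and 1.13-fold with library totals alone), past counting error but under 2-fold. Between the treated IR and IR livers its ratio was 0.896 (0.835 to 0.962), which turned to 1.18 with library totals alone. Cd68 had ratios of 0.844 (0.677 to 1.05) for treated IR to IR, 1.16 (0.824 to 1.66) for treated IR to control and 1.37 (0.979 to 1.97) for IR to control, none past counting error, and the first turned to 1.11 with library totals alone.

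Itgam was the gene with the widest range in liver and the only one of the 6 to pass the rule of size there. It was 2.70-fold higher in treated IR than in control (1.16 to 7.69, 53 against 6 reads), where 7.2% of all genes passed the rule and 4.81% passed it upwards. For IR to control its ratio was 2.04 (0.850 to 5.92, 36 against 6 reads) and for treated IR to IR 1.33 (0.852 to 2.08), neither past counting error. Ptprc had a ratio of 1.86 for treated IR to IR (1.18 to 3.01), past counting error but under 2-fold. With library totals alone that ratio was 2.45 and passed the rule. Aif1 had ratios of 1.20 for treated IR to IR (0.898 to 1.62), 0.893 for treated IR to control (0.613 to 1.33) and 0.742 for IR to control (0.499 to 1.12). For treated IR against IR and for IR against control, 0 of the 6 genes passed the rule, where 2.77% and 5.98% of all genes did.

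**Figure D4:**
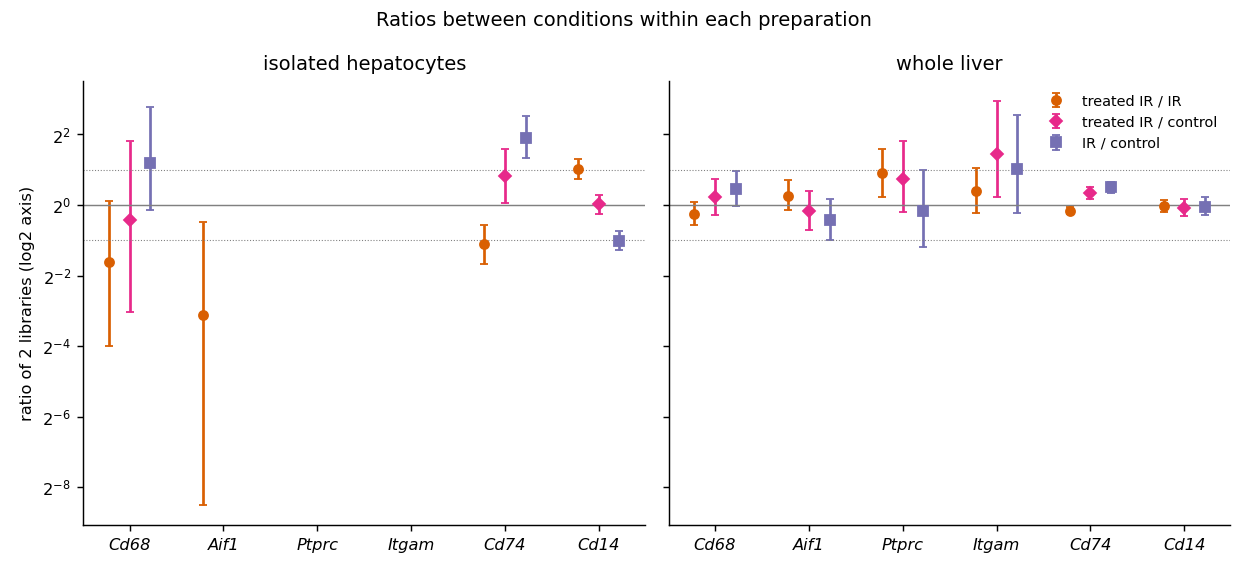
Ratio of TMM-scaled levels between 2 libraries of a preparation (y axis, log2 scale) for treated IR over IR, treated IR over control and IR over control, in hepatocytes (left) and whole liver (right), with 95% Clopper-Pearson intervals. Ratios with 0 reads in a library are left out, the dotted lines are 2-fold, and in hepatocytes, for IR over control and treated IR over IR, Cd74 lies past them and Cd14 at them in the opposite direction, while for treated IR over control both lie within, as do the liver ratios of both.

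Effects of condition shared by both preparations were tested with preparation as a term. For IR against control edgeR called 0 of the 6 genes, as it called 0% of all genes (332 of 9932 at an unadjusted p under 0.05, 1 of the 6 genes among them), and DESeq2 and limma-voom called 0 as well (119 and 300). Cd74 was that gene, at a log2 ratio of 1.16 (SE 0.42, adjusted p = 0.996 by edgeR) and a higher level after IR in 2 of 2 preparations. Without the hepatocyte IR library its log2 ratio was 0.57. Without the liver IR library, when 1 hepatocyte library alone stood for IR, Cd74 had 1.76 and Aif1 had 4.21. EdgeR called both in that fit, but its spread came from the control and treated IR libraries alone.

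For treated IR against IR edgeR called 0 of the 6 and 0% of all genes (297 at an unadjusted p under 0.05, 0 of the 6 among them), limma-voom 0 (299) and DESeq2 1 gene (175), which was not one of the 6. The log2 ratios ran from -0.71 for Aif1 to 0.47 for Cd14. Aif1 was called only without the liver IR library, at a log2 ratio of -4.26. There too 1 hepatocyte library alone stood for IR and added nothing to the spread. For treated IR against control edgeR called 0 of the 6 and 0% of all genes (230 at an unadjusted p under 0.05, 0 of the 6 among them), and DESeq2 and limma-voom 0 (101 and 225). Itgam had the largest ratio there, 1.42 on the log2 scale (SE 0.89, edgeR adjusted p = 0.9998).

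Taking the treated and untreated IR libraries of a preparation as alike gave a test of any IR against control within each preparation. In hepatocytes edgeR called 0 of the 6 and 0% of all genes (324 at an unadjusted p under 0.05, among them Aif1 and Cd74), and Cd74 stood at 1.49 on the log2 scale (SE 0.57, adjusted p = 1 by edgeR). In liver it called 0 of the 6 and 0% (244, 0 of the 6 among them), with Cd74 at 0.42 (SE 0.49, edgeR adjusted p = 0.99996). The difference between hepatocytes and liver was called for 0 of the 6 and 0% of all genes (296, Aif1 among them), and for Cd74 it was 1.06 (SE 0.73, edgeR adjusted p = 0.99998). DESeq2 called 0, 5 and 1 genes in these 3 tests and limma-voom 0 in each, none of them one of the 6.

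These tests within a preparation turned on the treated IR hepatocytes. Without that library edgeR called Cd74 (log2 ratio 1.90, adjusted p = 0.00260), Aif1 (adjusted p = 0.00631) and Cd14 (log2 ratio -1.01, adjusted p = 0.00980) for IR against control in hepatocytes, among 1360 genes in all. It then called the difference from liver for Cd74 (adjusted p = 0.0276) and Aif1 (adjusted p = 0.00882). With a single hepatocyte library left per condition, the spread behind these calls came from the livers alone and the lone libraries were assumed to vary like them.

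Other genes that were far lower in hepatocytes were read beside these markers, as a list defined after the data were seen and without the 6. The 499 genes at least 8-fold lower in treated IR hepatocytes than in treated IR liver had a median log2 ratio of 0.44 for IR against control in hepatocytes (interquartile range -0.06 to 0.91), beside 0.01 over all genes (-0.42 to 0.53). Of these genes 9.82% passed the rule of size upwards, near the 9.53% of all genes, and 1.20% passed downwards, against 6.93% of all. The 379 genes at least 8-fold lower in control hepatocytes than in control liver had a median of -0.52 for treated IR against IR in hepatocytes. Over all genes it was -0.04. Of the 379, 9.23% passed the rule of size downwards, fewer than the 12.1% of all genes, and 1.58% passed upwards, against 11.2% of all. Neither reading uses a library that chose its list. The medians of both lists had the direction of the Cd74 and Aif1 ratios, and many of these genes have few reads in hepatocytes, where log2 ratios computed with a prior count of 2 understate a change.

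In liver the same 499 genes had a median log2 ratio of 0.39 for IR against control, beside 0.04 over all genes. With library totals alone it was 0.04, beside -0.26 over all genes. Of the 499, 11.4% passed the rule of size upwards (3.76% of all genes) and 3.21% downwards (2.23%). The 379 genes had 0.13 for treated IR against IR in liver, beside -0.01 over all genes. With library totals alone this median was 0.50, beside 0.37 over all genes. Of the 379, 10.8% passed upwards (1.82% of all genes) and 1.06% downwards (0.946%). The medians moved with the scaling, as did the ratios of Cd74 and Cd68. Each list's median lay above that of all genes under either scaling. A change of scaling moves all genes of a pair by nearly the same amount, so this order could not have changed and is no check.

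The likeness of the 6 profiles was measured as the root mean square difference of centred log2 CPM over the 6 libraries. Cd68 and Itgam were closest, at 0.35, and the pairs among Cd68, Ptprc, Cd74 and Itgam lay between 0.35 and 0.44. Aif1 differed from those 4 by 0.53 to 0.87. Cd14 differed from the other 5 by 1.65 to 2.19, and the nearest of the 5 ranked 9737 among the 9931 other tested genes by likeness to Cd14. These values are a description, dominated by the loss in hepatocytes. They were computed with a prior count of 2, which compresses the profiles of Itgam and Ptprc, with 2 and 6 hepatocyte reads. The fitted log2 ratios of the closest pair were -3.10 for Cd68 and -4.58 for Itgam.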

How the data were processed

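Poly(A)-selected RNA, pooled from 3 animals per group, was made into libraries with an Ion Torrent kit, per the labels' protocols. Each deposited file gives raw counts of reads by Ensembl gene ID. The submitters' processing notes name TopHat2 2.0.13 and HTSeq 0.6.1. Which build, annotation and strand setting were used is not given in the sources used here. Overlapping and antisense genes may therefore hold reads of each other. Summary lines that name no gene were left out (6.23% to 8.34% of uniquely aligned reads outside genes, 0.358% to 0.798% ambiguous). Reads in genes ran from 1945331 to 7160610.

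Groups came from the sample titles. The filterByExpr function, grouped by condition with a minimum count of 10, kept 9932 of 26689 genes. After TMM scaling, the 6 libraries were fitted together by edgeR's quasi-likelihood method with 2 residual degrees of freedom (common dispersion, as a biological coefficient of variation, 0.288), and p-values were Benjamini-Hochberg adjusted at 0.05. The pools were taken as separate samples. Pairs of libraries have Clopper-Pearson intervals (95%) and no p-value. The software was edgeR 4.0.16, DESeq2 1.42.0 and limma 3.58.1 under R 4.3.3, and the fits were first tested on simulated counts. The 6 genes, the lists and the tests were chosen with earlier results of these data known. Lists of further cell type and pathway markers by symbol, and a rule naming their members and the 5 genes most like the 6, gave no gene, because 0 IDs matched a symbol. Other settings tried were a minimum count of 50, no filter, library totals, the size factors and the Wald test of DESeq2, limma-voom, a model with no condition term, a 4-fold rule and each library left out.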

Additional observations from a re-analysis of the deposited data

How the results depend on the processing

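The 5 lower genes kept their direction under every alternative that tested them. Under 76 such settings over the 6 genes, 72 left direction and call in place; the exceptions are Ptprc without the liver treated IR library, Aif1 by DESeq2 (log2 ratio -4.59 in place of -3.20), and the sign of Cd14 without the hepatocyte IR (0.18) or liver IR library (0.23; -0.33 to 0.23 over the 6 libraries left out). A minimum count of 50 left out Ptprc and Itgam, so 3 of 4 genes were called, among 158 genes in place of 530. No paired analysis was possible because each group holds 1 library, so replicate numbers could not serve as a block. Hepatocytes and liver were compared with condition as a term, which sets them side by side within each condition, and without that term 5 of the 6 genes and 555 genes in all were called.

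Over all genes, leaving out 1 library gave 390 to 755 calls for hepatocytes vs liver (4 to 5 of the 6), 3 to 402 for IR vs control (0 to 2), 0 to 659 for treated IR vs IR (0 to 1), 0 to 37 for treated IR vs control, 0 to 1360 for any IR in hepatocytes (0 to 3), 2 to 132 for any IR in liver and 3 to 798 for their difference (0 to 2), against 0 with all libraries for each comparison of conditions. A control library could not be left out of the tests of any IR. With no filter the calls were 3 for IR vs control, 31 for treated IR vs IR, 14 for treated IR vs control, 9 and 44 for any IR in hepatocytes and liver, and 35 for their difference. With library totals alone the last 3 were 3, 20 and 22. DESeq2 called 1 gene for treated IR vs IR, 5 for any IR in liver and 1 for the difference. In each case none was one of the 6, except in the fits named in the report. The cause was not tested.

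By the rule of size, a minimum count of 50 left 894 (treated IR), 646 (IR) and 482 (control) genes apart between hepatocytes and liver in place of 1955, 1731 and 1101. In hepatocytes it left 1413 for treated IR vs IR, 879 for IR vs control and 468 for treated IR vs control, in place of 2311, 1635 and 826, and in liver 58, 254 and 292 in place of 275, 594 and 715. The 4-fold rule left 792, 729 and 595, then 591, 338 and 147, then 37, 129 and 170, in the same order. Library totals alone gave 3172 genes between treated IR hepatocytes and liver (3.40% of them higher in place of 34.9%) and 639 between treated IR and IR liver (95.9% higher in place of 65.8%), for which no filter gave 504. They put the median log2 ratio of all genes at -0.64 and 0.37 in these 2 pairs. The share higher also moved to 12.1% from 34.9% between control hepatocytes and liver, to 25.2% from 48.2% and 18.7% from 50.8% for treated IR vs IR and vs control in hepatocytes, and to 18.7% from 62.8% for IR vs control in liver.

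Depth limits the sparse genes most: Ptprc and Itgam had 6 and 2 reads over all hepatocyte libraries, and the liver control library held 11 and 6.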
